A study of Homo sapiens with 24 samples.

Results

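The 7 genes described here are the interferon-induced IFIT genes IFIT1, IFIT2, IFIT3 and IFIT5 and the IFITM genes IFITM1, IFITM2 and IFITM3, taken by symbol from a table of 60236 genes. They were followed by RNA-seq in HEK293T, an embryonic kidney cell line, and A549, a lung adenocarcinoma cell line. Each line was transfected for 48 h with 1 of 4 plasmids, with 3 libraries per group and 24 libraries in all. The snaR-A plasmid carried snaR-A, a small noncoding RNA made by RNA polymerase III, behind a U6 promoter, and the scramble plasmid carried a scrambled snaR-A sequence behind the same promoter. The SF3B2 plasmid expressed a subunit of the U2 snRNP of the spliceosome, and the eGFP plasmid a fluorescent protein, both from a pcDNA3.1 + /C-(K) DYK backbone. The scramble and eGFP controls therefore differed in backbone, promoter and cargo together, and these cannot be told apart. All groups received Lipofectamine 3000, and no untransfected cells were analysed here. The methods describe the replicates of the genomic experiments as biological and handled on a single day, and the labels number them within each group.

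Interferons are secreted when cells sense foreign nucleic acid. They signal through surface receptors and JAK kinases to ISGF3, a transcription factor complex that binds an interferon-stimulated response element in the promoters of its target genes. IFIT proteins are cytoplasmic and bind viral RNA or translation factors: IFIT1 binds mRNA caps that lack the methylation of host caps, IFIT2 and IFIT3 form complexes with it, IFIT2 is also linked to apoptosis, and IFIT5 binds RNA with terminal phosphates. IFITM proteins sit in membranes and restrict the entry of enveloped viruses, IFITM1 mostly at the cell surface and IFITM2 and IFITM3 mostly in endosomes.

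On GRCh38 in GENCODE 44, the IFIT genes lie side by side on the plus strand of chromosome 10: IFIT2 at chr10:89283694-89309271, IFIT3 at chr10:89327307-89377473, IFIT1 at chr10:89392546-89406487 and IFIT5 at chr10:89414568-89421605. The IFITM genes lie together on chromosome 11, with IFITM2 at chr11:303655-309397 and IFITM1 at chr11:310041-315272 on the plus strand and IFITM3 at chr11:319676-329475 on the minus strand. The IFITM genes resemble each other most: 37.8% of the 31-base words of IFITM1 transcripts, 29.8% of those of IFITM2 and 26.4% of those of IFITM3 also occurred in another gene, so part of the division of reads between them is uncertain. For the IFIT genes this share lay between 0.068% (IFIT5) and 10.1% (IFIT2). On the same strand, a protein-coding gene without a symbol overlaps IFITM1 over 5232 bases and IFITM2 over 990 bases. It shares 15.2% of the IFITM1 words, so the division of reads with it is uncertain too. A long noncoding RNA gene on the same strand overlaps IFIT2 over 8432 bases and shares 10.1% of its words. LIPA runs antisense across IFIT1, IFIT2 and IFIT3. The library kit kept strand, but the strand setting of the counting is not given in the sources used here.

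RefSeq promoters on GRCh38.p14 were found for 5 of the 7 genes, 6 promoters in all, and they are shown because the members moved together in A549. Each line gives the 160 bases before and 10 bases from the start, 5′ to 3′ on the gene's strand, and capitals mark every match on either strand to GAAANNGAA, the core of the interferon-stimulated response element. Matches can overlap, as they do in the second IFIT3 promoter.

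IFIT1 promoter, chr10:89392463-89392632, plus strand: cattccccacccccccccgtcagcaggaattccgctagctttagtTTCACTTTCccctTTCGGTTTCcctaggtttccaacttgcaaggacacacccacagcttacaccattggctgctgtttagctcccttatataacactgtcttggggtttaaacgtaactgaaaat
IFIT3 promoter, chr10:89327837-89328006, plus strand: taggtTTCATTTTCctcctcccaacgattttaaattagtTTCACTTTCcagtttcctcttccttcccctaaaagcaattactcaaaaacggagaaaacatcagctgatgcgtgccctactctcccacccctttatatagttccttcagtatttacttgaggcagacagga
IFIT3 promoter, chr10:89332369-89332538, plus strand: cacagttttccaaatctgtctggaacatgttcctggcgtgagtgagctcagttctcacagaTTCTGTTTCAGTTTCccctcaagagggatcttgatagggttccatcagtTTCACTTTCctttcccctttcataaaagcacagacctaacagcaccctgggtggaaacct
IFIT5 promoter, chr10:89414408-89414577, plus strand: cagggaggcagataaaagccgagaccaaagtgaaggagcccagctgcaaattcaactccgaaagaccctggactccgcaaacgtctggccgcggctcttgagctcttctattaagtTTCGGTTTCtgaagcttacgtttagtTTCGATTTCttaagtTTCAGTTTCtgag
IFITM1 promoter, chr11:313880-314049, plus strand: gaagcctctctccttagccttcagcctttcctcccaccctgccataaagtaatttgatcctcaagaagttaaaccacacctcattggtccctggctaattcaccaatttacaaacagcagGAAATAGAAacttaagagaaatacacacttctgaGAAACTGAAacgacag
IFITM3 promoter, chr11:320851-321020, minus strand: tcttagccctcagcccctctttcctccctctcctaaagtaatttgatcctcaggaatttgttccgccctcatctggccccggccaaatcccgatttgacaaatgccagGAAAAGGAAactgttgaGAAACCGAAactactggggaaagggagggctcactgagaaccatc

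All 6 promoters held the motif in the full window from 250 bases before to 50 bases after the start, with 2 or 3 matches each, against 2847 of 35116 RefSeq promoters of the same length (8.11%). The matches lay on the minus strand relative to the gene in IFIT1, IFIT3 and IFIT5 and on the plus strand in IFITM1 and IFITM3. They began closest to the start in IFIT5, at 44, 18 and 3 bases before it, and farthest away in the first IFIT3 promoter, at 155 and 121 bases. A match describes letters only, and no binding was measured. The genes were already known as interferon-induced when chosen, so the share beside that of all promoters is a description and not a test.

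Library totals ranged from 195185935 to 260878271 estimated counts, so that 3 counts, the limit a count of 0 allows, were at most 0.0165 CPM (CPM being counts scaled to the library total, here with TMM factors between libraries). All 7 members passed the filter on low counts in every comparison, the lowest value being 114 counts of IFIT2 in a HEK293T scramble library. SF3B2 RNA marked the SF3B2 groups, at 48885, 46649 and 45564 CPM in A549 and 37666, 29024 and 24053 CPM in HEK293T, against 293 to 371 CPM in all other libraries but 1. The exception, A549 scramble replicate 3, stood at 8773 CPM. In HEK293T eGFP replicate 3, 8 genes typical of A549 summed to 728 CPM, where the other 11 HEK293T libraries had 3.97 to 21.6 CPM and the A549 libraries 19723 to 22196 CPM. Each of the 8 was at its HEK293T maximum there. HEK293T SF3B2 replicate 3 had the second highest sum, 21.6 CPM. Of 8 genes listed as typical of HEK293T, 5 were higher in every HEK293T than in every A549 library. STMN2 was near 0 in both lines, and CRABP1 and MAP2 were lower in HEK293T. CRABP1 was at 0.201 to 0.361 CPM in A549 and at most 0.0170 CPM in HEK293T. The library A549 snaR-A replicate 3, is titled A549 but tagged HEK293T in another label, and its A549 marker RNA was at the A549 level. Several results that rest on these libraries, though not all, are also given without them.

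**Figure D1:**
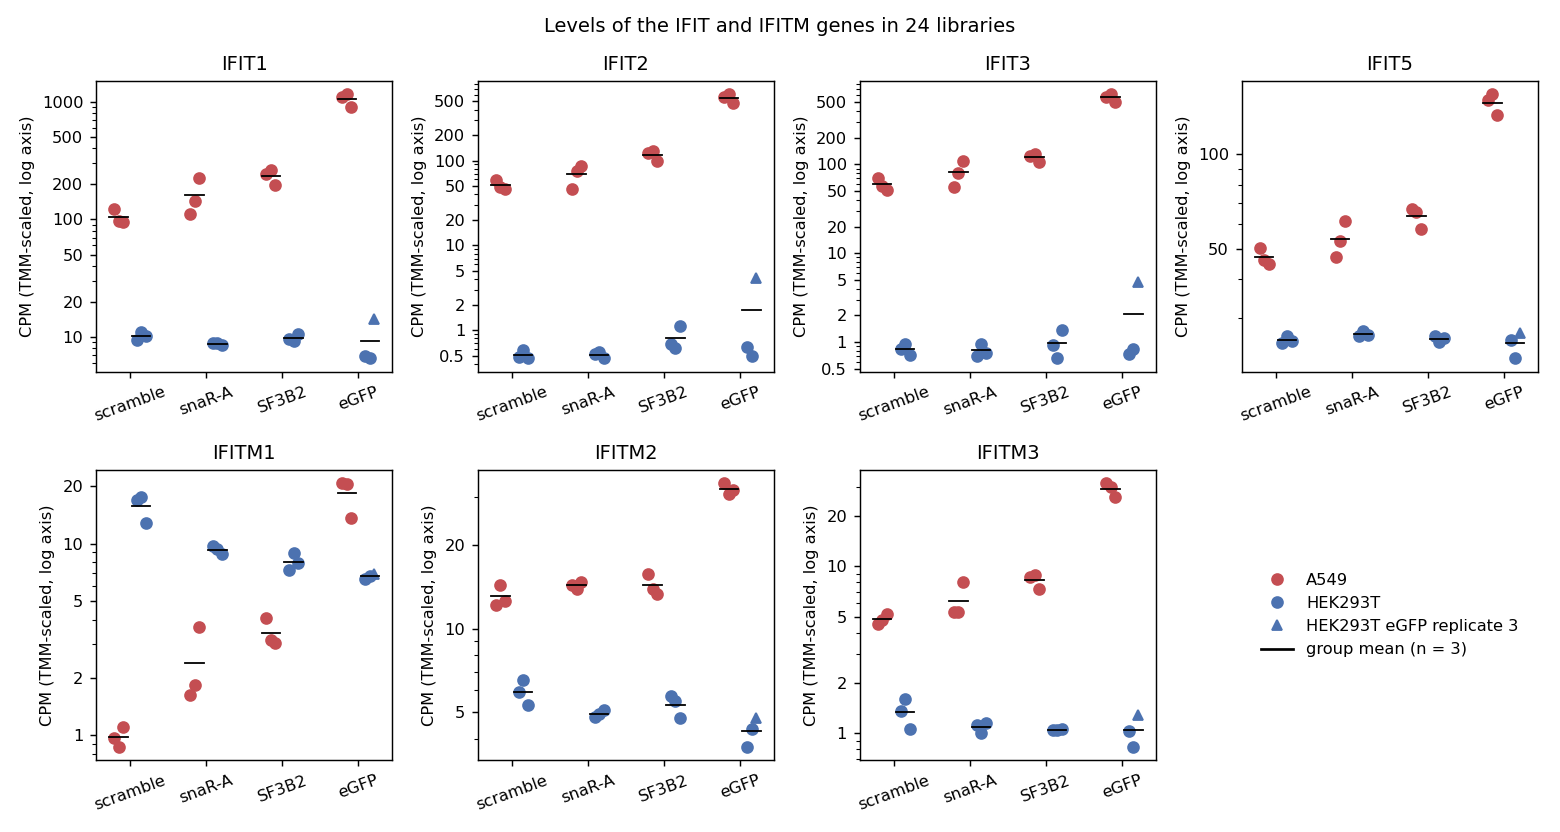
CPM of each gene (vertical log axis, TMM-scaled over all 24 libraries) by plasmid, with A549 in red, HEK293T in blue, 1 point per library and a bar at the group mean (n = 3). The A549 eGFP libraries lie above every other A549 library for all 7 genes, and in HEK293T the triangle, eGFP replicate 3, lies apart for IFIT1, IFIT2 and IFIT3.

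The starting point differed between the lines. In the scramble groups, IFIT1 was at 123, 96.2 and 94.3 CPM in A549 and at 9.41, 11.0 and 10.1 CPM in HEK293T. IFIT2 was at 58.3, 48.6 and 46.8 CPM against 0.481, 0.588 and 0.468 CPM, and IFIT3 at 70.4, 57.8 and 52.2 CPM against 0.826, 0.951 and 0.706 CPM. None of these pairs of groups overlapped, with A549 the higher line each time. IFITM1 ran the other way, at 0.975, 0.869 and 1.10 CPM in A549 and 16.8, 17.5 and 12.8 CPM in HEK293T, again without overlap. A549 scramble against HEK293T scramble, 5 of the 7 genes were higher in A549 and 1 was lower by the call rule used throughout (edgeR's quasi-likelihood test with Benjamini-Hochberg adjusted p under 0.05 and a log2 fold change past 1), where 23.1% of all 23124 genes tested were called higher and 24.7% lower. The log2 fold changes were 3.30 (SE 0.12) for IFIT1, 6.58 (SE 0.14) for IFIT2, 6.12 (SE 0.17) for IFIT3, 1.08 (SE 0.11) for IFITM2, 1.78 (SE 0.18) for IFITM3 and -4.06 (SE 0.17) for IFITM1. IFIT5, at 0.82 (SE 0.068), passed the adjusted p but not the fold limit. The IFITM2 value was under the fold limit without HEK293T scramble replicate 3 (0.999) and with scaling by library size alone (0.69). With calls this common across all genes, the counts say little of these families in particular. The lines differ in tissue, medium and much else, and in bulk libraries fewer expressing cells and less RNA per cell cannot be told apart.

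Per length, the order of the genes within each line was also different. In A549 scramble, IFIT1 led at 22.6 ± 3.44 CPM per kb of exon (SD, n = 3), followed by IFIT3 at 11.9 ± 1.84 CPM per kb, IFIT2 at 11.8 ± 1.43 CPM per kb and IFIT5 at 10.8 ± 0.691 CPM per kb, which lay within their spread of each other. IFITM2 stood at 8.15 ± 0.733, IFITM3 at 1.70 ± 0.123 and IFITM1 last at 0.590 ± 0.0708 CPM per kb. In HEK293T scramble, IFITM1 led at 9.43 ± 1.51 CPM per kb, followed by IFIT5 at 5.86 ± 0.147, IFITM2 at 3.68 ± 0.376 and IFIT1 at 2.21 ± 0.172 CPM per kb. IFITM3, IFIT3 and IFIT2 were each under 1 CPM per kb of exon. IFIT5 was thus the IFIT gene closest in level between the lines. With the length of the longest transcript in place of all exons, the per-kb levels of IFITM1 and IFITM3 moved most, to 1.16 and 4.62 CPM per kb in A549 scramble and 18.6 and 1.29 CPM per kb in HEK293T scramble. On that scale IFITM2 passed IFIT5 in A549 and the HEK293T order was the same.

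In A549, all 7 genes rose with eGFP against scramble, the RNA-binding IFIT1, IFIT2 and IFIT3 by 9.40- to 10.7-fold and IFITM1 by 18.5-fold. IFIT1 reached 1099, 1156 and 895 CPM, IFIT2 567, 606 and 476 CPM and IFIT3 581, 618 and 504 CPM in the 3 eGFP libraries. The lowest eGFP library stood above the highest scramble library for each of them. The log2 fold changes were 3.32 (SE 0.14), 3.42 (SE 0.12) and 3.23 (SE 0.13). IFIT5 was at 50.4, 45.9 and 44.6 CPM with scramble and 149.5, 156 and 133 CPM with eGFP, a log2 fold change of 1.63 (SE 0.075).

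Among the membrane proteins, IFITM1 went from 0.975, 0.869 and 1.10 CPM, the lowest level per kb of the 7 genes, to 20.7, 20.5 and 13.5 CPM, with replicate 3 the lowest of the eGFP libraries and a log2 fold change of 4.21 (SE 0.20). IFITM3 was at 4.48, 4.80 and 5.18 CPM with scramble and 31.5, 29.8 and 26.2 CPM with eGFP, a log2 fold change of 2.59 (SE 0.093) or 6.02-fold. IFITM2 was at 12.2, 14.4 and 12.6 CPM with scramble and 33.6, 30.6 and 31.7 CPM with eGFP, a log2 fold change of 1.28 (SE 0.079) or 2.44-fold, the smallest change of the 7. The scramble and eGFP libraries did not overlap for any of the 3 IFITM genes or for IFIT5. Of all 21578 genes tested, 0.904% were called higher, against 7 of 7 members, whose adjusted p lay between 6.35e-05 and 0.000183 by edgeR. The median log2 fold change was 3.23 over the members and -0.01 over all genes. All 7 stayed called without scramble replicate 3, the library with SF3B2 RNA.

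**Figure D2:**
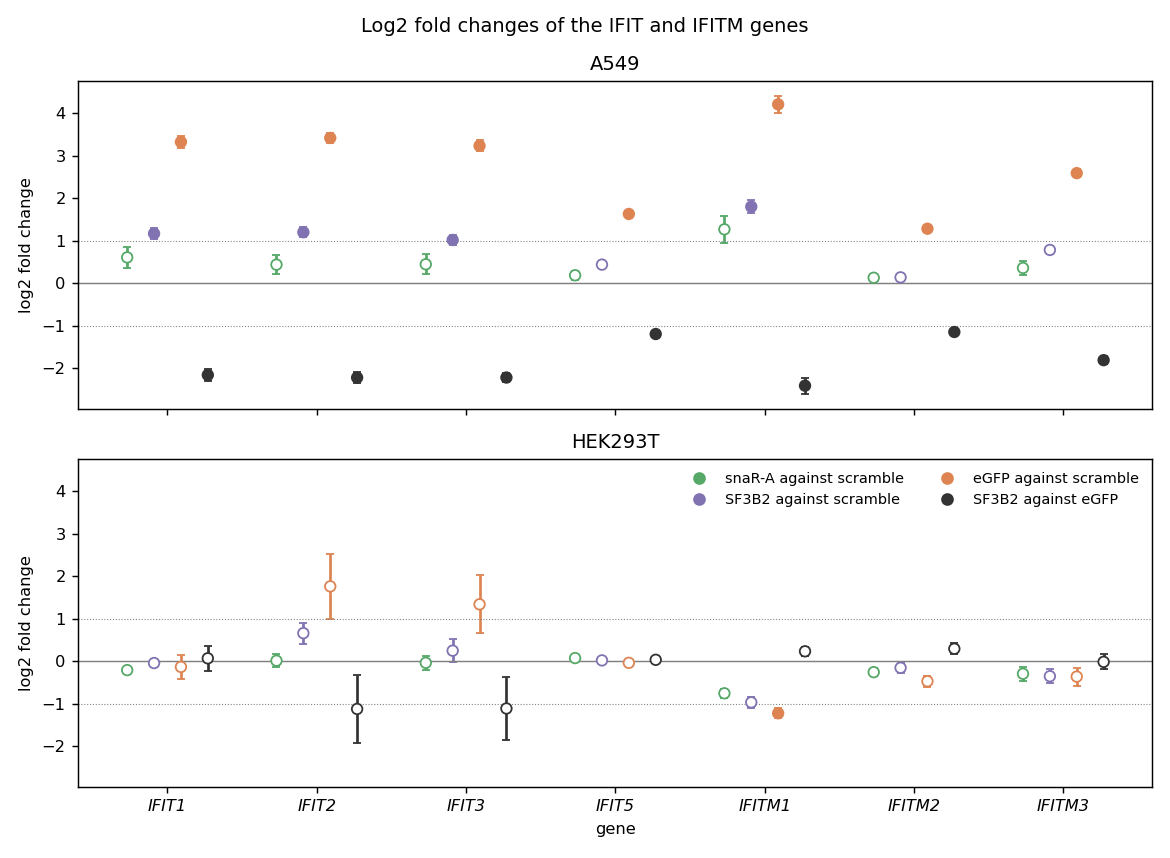
Log2 fold change of each gene (vertical axis, 3 libraries against 3) in 4 comparisons in A549 (top) and HEK293T (bottom). Error bars are ± 1 SE derived from the edgeR F statistic, filled points are called and dotted lines mark the fold limits. In A549 the eGFP points are all filled above 1 and the SF3B2 against eGFP points all filled below -1, while in HEK293T IFITM1 with eGFP is the only filled point.

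With the SF3B2 plasmid, A549 cells held far less of these RNAs than with eGFP, the other plasmid of the same backbone. IFIT1 was at 244, 264 and 194 CPM, IFIT2 at 123, 131 and 98.0 CPM and IFIT3 at 125, 132 and 107 CPM. Every one of these libraries lay below every eGFP library. All 7 genes fell, with log2 fold changes of -2.15 (SE 0.13) for IFIT1, -2.21 (SE 0.13) for IFIT2, -2.21 (SE 0.098) for IFIT3, -1.19 (SE 0.072) for IFIT5, -2.40 (SE 0.19) for IFITM1, -1.14 (SE 0.069) for IFITM2 and -1.80 (SE 0.091) for IFITM3. Adjusted p by edgeR lay between 9.39e-05 and 0.000829, and 0.802% of all 21581 genes tested were called lower. This comparison and the one above use the same eGFP libraries, so the opposite signs are not 2 separate observations.

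Against scramble, the SF3B2 libraries of A549 were in part still higher. IFITM1 was at 4.07, 3.13 and 3.04 CPM, all above the scramble libraries, with a log2 fold change of 1.80 (SE 0.16) and adjusted p = 0.0195 by edgeR. IFIT1, IFIT2 and IFIT3 had log2 fold changes of 1.17 (SE 0.14), 1.20 (SE 0.12) and 1.02 (SE 0.12), with adjusted p of 0.0430, 0.0316 and 0.0430 by edgeR. These 4 of 7 genes were called higher, where 0.0746% of all 21461 genes tested were. IFITM3 (0.79, SE 0.097) passed the adjusted p at 0.0461 by edgeR but not the fold limit, and IFIT5 (0.44, SE 0.071) and IFITM2 (0.14, SE 0.087) passed neither. The count of 4 was fragile: it was 0 without scramble replicate 2, SF3B2 replicate 1 or SF3B2 replicate 2, 1 without SF3B2 replicate 3, 2 with RLE factors and 0 in a fit of all 12 A549 libraries. Without scramble replicate 3, which itself held SF3B2 RNA, it was 3, since IFIT3 was under the fold limit at 0.91 (SE 0.11), while 315 genes in all were then called in either direction against 18 with that library.

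Transfection with snaR-A itself gave no call in A549. IFIT1 was at 112, 143 and 225 CPM, IFIT2 at 46.2, 75.4 and 87.5 CPM and IFITM1 at 1.63, 1.84 and 3.66 CPM. Replicate 3 was the highest of the 3 each time, and the IFIT1 and IFIT2 libraries overlapped those of scramble, while those of IFITM1 did not. The log2 fold changes were 0.61 (SE 0.25) for IFIT1, 0.44 (SE 0.22) for IFIT2, 0.45 (SE 0.24) for IFIT3, 0.19 (SE 0.10) for IFIT5, 1.27 (SE 0.31) for IFITM1, 0.13 (SE 0.074) for IFITM2 and 0.36 (SE 0.17) for IFITM3. Adjusted p by edgeR was at least 0.794 for all 7, and 0.0185% of all 21662 genes were called in either direction. By edgeR 2 of the 7 had an unadjusted p under 0.05, a limit at which the share of all genes was not counted. DESeq2 called 1 of the 7, and edgeR's exact test 0. Without snaR-A replicate 3, the library whose labels disagree, the log2 fold change of IFITM1 was 0.81 (SE 0.16) and that of IFIT1 0.28 (SE 0.15). Without scramble replicate 3, the library with SF3B2 RNA, IFITM1 was at 1.36 (SE 0.36) with an adjusted p of 0.106 by edgeR, still not called. Over all genes 29 were then called, against 4 with that library. In order of mean level within A549, eGFP came first for every gene and its libraries did not overlap those of the next group. The 3 other A549 groups overlapped with their neighbours in the order, except that SF3B2 stood above snaR-A for IFIT2 and snaR-A above scramble for IFITM1 and IFITM3. For this and the other statements on overlap, the share of all genes whose libraries stand apart was not counted.

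In HEK293T, IFITM1 was called lower with eGFP, and no other member was called in any of the 4 HEK293T comparisons. IFITM1 was at 16.8, 17.5 and 12.8 CPM with scramble, 9.68, 9.33 and 8.83 CPM with snaR-A, 7.31, 8.87 and 7.88 CPM with SF3B2 and 6.56, 6.74 and 6.92 CPM with eGFP. The scramble libraries were above all others, and the eGFP libraries below all others. The summed RNA of the 8 listed HEK293T genes was also highest with scramble, at 619 to 674 CPM, and lowest with eGFP, at 342 to 353 CPM. Its SF3B2 (372 to 488 CPM) and snaR-A (396 to 444 CPM) libraries overlapped. NEFM alone had a mean of 371 CPM with scramble and 130 CPM with eGFP. Of these 8, the neurofilament genes NEFL and NEFM were higher in every scramble library than in every other HEK293T library, and the other 6 overlapped. The part of that difference between the groups in the IFITM1 values was not tested. Against scramble, the log2 fold change was -1.22 with eGFP (SE 0.12, adjusted p = 0.000270, edgeR, 2.33-fold lower), and 2.98% of all 22613 genes tested were called lower there. With SF3B2 it was -0.96 (SE 0.13, adjusted p = 0.00256, edgeR) and with snaR-A -0.75 (SE 0.11, adjusted p = 0.00152, edgeR), both within the fold limit. The SF3B2 value passed that limit without scramble replicate 3 (-1.09) or SF3B2 replicate 2 (-1.03) and with scaling by library size alone (-1.03). Of all genes, 2.24% were called lower with SF3B2 and 0.79% with snaR-A. The 3 comparisons share the scramble libraries, so the 3 values are not separate observations. SF3B2 against eGFP, IFITM1 differed by 0.24 (SE 0.10) and 0 of 7 members were called, as were 0.133% of all 22623 genes in either direction, with 1 member at an unadjusted p under 0.05. At that unadjusted limit the count was 2 of 7 for SF3B2 and 3 of 7 for snaR-A, each against scramble. Neither edgeR's exact test nor DESeq2 called a member in these 3 comparisons. The share of all genes at the unadjusted limit was not counted. By the adjusted p alone, 3790 genes were higher and 3958 lower of 22593 with SF3B2 against scramble. With snaR-A against scramble they were 4031 and 4198 of 22667, so these counts say little of the members in particular.

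The other IFITM genes of HEK293T had lower means with eGFP than with scramble, and neither was called. IFITM2 was at 5.90, 6.53 and 5.32 CPM with scramble and 3.73, 4.33 and 4.78 CPM with eGFP, groups that did not overlap, with a log2 fold change of -0.47 (SE 0.13) and adjusted p = 0.0176 by edgeR, within the fold limit. IFITM3 was at 1.36, 1.61 and 1.07 and 1.03, 0.826 and 1.29 CPM, which overlapped, with a log2 fold change of -0.36 (SE 0.21). IFIT5 was the steadiest member: its 12 HEK293T libraries lay between 22.4 and 27.5 CPM, and its log2 fold changes were -0.03 (SE 0.072) with eGFP, 0.02 (SE 0.058) with SF3B2 and 0.08 (SE 0.040) with snaR-A, each against scramble.

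IFIT1, IFIT2 and IFIT3 depended on 1 library. With eGFP, IFIT2 was at 0.631, 0.492 and 4.08 CPM, IFIT3 at 0.739, 0.830 and 4.71 CPM and IFIT1 at 6.89, 6.59 and 14.4 CPM. Replicate 3, the library with A549 marker RNA, was the high one of each, and the other 2 libraries were near the scramble level for IFIT2 and IFIT3 and below it for IFIT1. With all 3 libraries the log2 fold changes against scramble were 1.76 (SE 0.76) for IFIT2, 1.34 (SE 0.68) for IFIT3 and -0.13 (SE 0.29) for IFIT1, none of them called. IFIT2 was called in a fit of all 12 HEK293T libraries and without eGFP replicate 2, in the latter at 2.19 with an adjusted p of 0.0381 by edgeR. Without replicate 3 they were 0.13 (SE 0.20), -0.07 (SE 0.18) and -0.59 (SE 0.088), and IFIT1 then had an adjusted p of 0.00149 by edgeR, within the fold limit. IFITM1 was as low without that library, at -1.24 (SE 0.13). HEK293T SF3B2 replicate 3, with the second highest A549 marker sum, also had the highest IFIT1, IFIT2 and IFIT3 of its group, IFIT2 at 0.688, 0.618 and 1.11 CPM. The part of A549 RNA in these values was not tested.

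**Figure D3:**
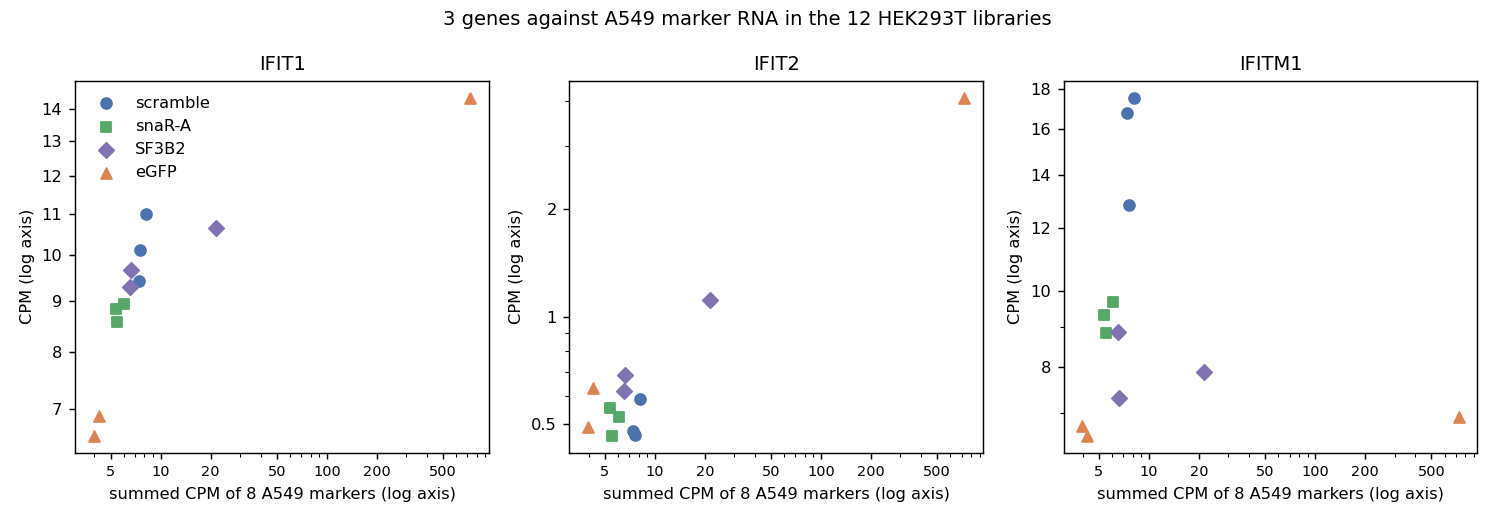
CPM of IFIT1, IFIT2 and IFITM1 (vertical log axes) against the summed CPM of 8 A549 marker genes (horizontal log axis) in the 12 HEK293T libraries, 1 point per library and 1 marker shape per plasmid. The library at 728 CPM of marker RNA, eGFP replicate 3, has the highest IFIT1 and IFIT2, while its IFITM1 lies with the other 2 eGFP libraries.

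The difference between the lines was tested directly, as the A549 effect minus the HEK293T effect in a fit of 12 libraries, with a call at an edgeR adjusted p under 0.05. For eGFP against scramble, 5 of 7 members had a larger log2 fold change in A549: IFITM1 by 5.49 (SE 0.25), IFIT1 by 3.51 (SE 0.39), IFITM3 by 3.01 (SE 0.26), IFITM2 by 1.81 (SE 0.16) and IFIT5 by 1.73 (SE 0.12), where 15.6% of all 24763 genes tested were called in that direction. IFIT2 (1.71, SE 0.88, adjusted p = 0.177) and IFIT3 (1.95, SE 0.80, adjusted p = 0.0965) missed the edgeR threshold with all libraries. Without HEK293T eGFP replicate 3, all 7 were called, IFIT2 at 3.37 (SE 0.22) and IFIT3 at 3.40 (SE 0.22). In that fit 4065 of all 25540 genes tested were called in the same direction. For IFITM1 the effects had opposite signs, higher with eGFP in A549 and lower in HEK293T.

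For SF3B2 against eGFP, 5 members had a lower log2 fold change in A549 (IFIT1 -2.25, IFIT5 -1.25, IFITM1 -2.67, IFITM2 -1.47 and IFITM3 -1.82), and 3.52% of all 24714 genes tested were called in that direction. Without HEK293T eGFP replicate 3 all 7 were called, as were 1055 of all 25393 genes tested in that direction. For snaR-A against scramble, IFITM1 was the only member called, at 2.01 (SE 0.35) with an adjusted p of 0.00549 by edgeR, where 4.79% of all 24784 genes were called in that direction and 6.64% in the other. The count was 2 without A549 scramble replicate 2 and 3 without A549 snaR-A replicate 1 or HEK293T scramble replicate 3. In those fits, in that order, 949, 830 and 2009 of all genes were called with a larger log2 fold change in A549. Without A549 snaR-A replicate 3 the IFITM1 difference was 1.58 (SE 0.19), with an adjusted p of 0.00294 by edgeR.

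The rest of the interferon pathway was read from a list of 45 genes, 43 of which were analysed here. In A549 with eGFP against scramble, 29 of 42 tested were called higher and 0 lower, and the median log2 fold change was 2.47. The ligands were all called but rare: IFNB1, the type I interferon, was at 0.0477, 0.121 and 0.183 CPM with scramble and 1.31, 1.54 and 1.08 CPM with eGFP, and log2 fold changes were 3.47 (SE 0.41) for IFNB1, 3.70 (SE 0.22) for IFNL1, 4.41 (SE 0.64) for IFNL2 and 3.88 (SE 0.54) for IFNL3, the type III interferons. IFNL2 and IFNL3 are near-identical copies, so their values are uncertain individually. Of the sensors and adaptors 4 of 7 were called, led by the double-stranded RNA sensors IFIH1 (2.95, SE 0.16) and TLR3 (2.76, SE 0.17), and of the kinases and IRFs 1 of 4, the transcription factor IRF1 (1.30, SE 0.060), with the kinase IKBKE at 0.24 (SE 0.081).

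None of the 6 receptors and JAK kinases was called in that comparison, the largest values being 0.30 (SE 0.14) for IFNLR1, the type III receptor chain, and 0.10 (SE 0.067) for IFNAR2, a type I receptor chain, and all 6 had an edgeR adjusted p above 0.05. The transcription factor STAT2 (2.01, SE 0.11) was called, as were 2 of 3 negative regulators, the ISG15 protease USP18 (2.46, SE 0.12) and the JAK inhibitor SOCS1 (1.99, SE 0.27). All 16 antiviral effectors were called, led by IFI27 (4.54, SE 0.53) and XAF1 (4.03, SE 0.21). SF3B2 against eGFP, 30 of 42 were called lower and 0 higher, with a median of -1.72, among them IFNB1 (-2.11, SE 0.29), IFIH1 (-2.13, SE 0.084), STAT2 (-1.47, SE 0.11) and XAF1 (-2.96, SE 0.14). SF3B2 against scramble, 4 of 42 were called higher, the effectors MX1, OAS2, OASL and IFI6. That count was 11 without scramble replicate 3, 2 without SF3B2 replicate 3 and 0 without scramble replicate 2, SF3B2 replicate 1 or SF3B2 replicate 2. In snaR-A against scramble it was 0 of 42, with 11 at an unadjusted p under 0.05 by edgeR and 1 called by DESeq2 and by edgeR's exact test. The share of all genes at that unadjusted limit was not counted, so the 11 cannot be set against it.

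**Figure D4:**
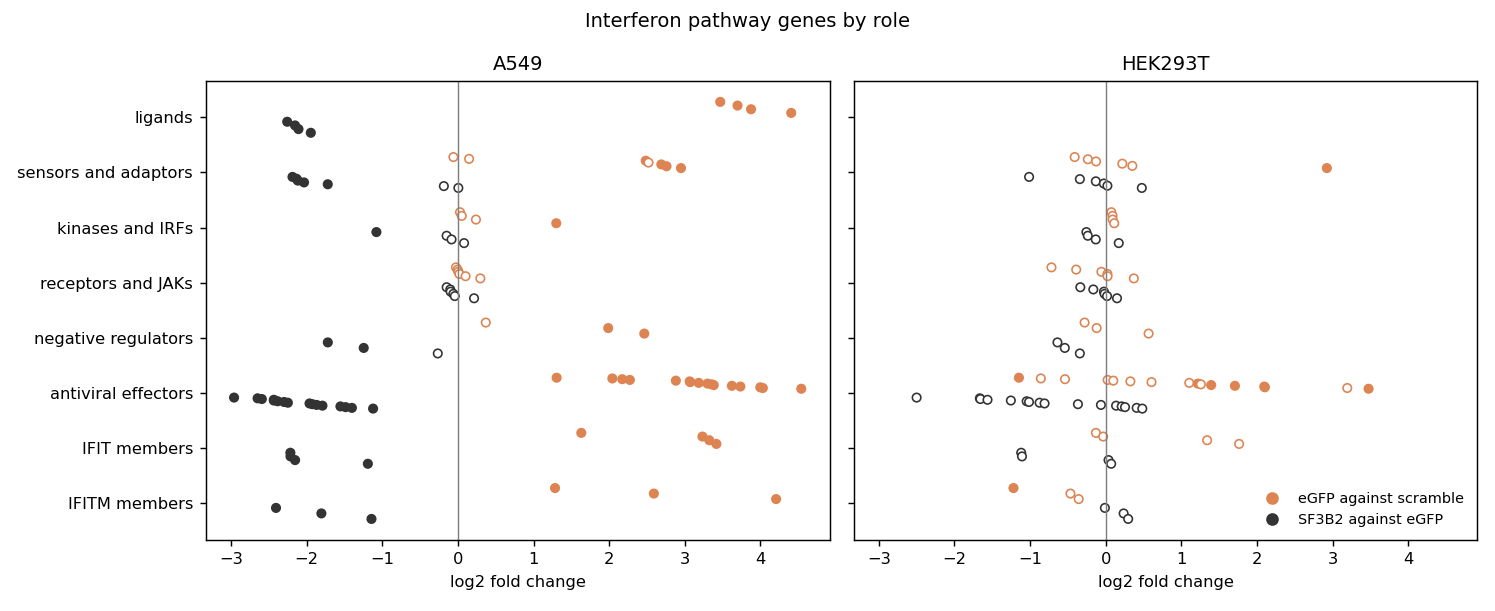
Log2 fold changes (horizontal axis) of interferon pathway genes in 6 roles and of the IFIT and IFITM members, 1 point per gene tested, for eGFP against scramble (orange) and SF3B2 against eGFP (black) in each line, filled where called. In A549 the ligands, effectors and members lie to the right with eGFP and to the left with SF3B2 against eGFP. The receptors and JAKs of A549 lie near 0. In HEK293T few points are filled, and the effectors had a median of 1.16 with eGFP and -0.84 with SF3B2 against eGFP.

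In HEK293T the ligands were too low to test, and IFNB1 was at 0 CPM in 9 of 12 libraries and at most 0.00424 CPM, under the limit a count of 0 allows. With eGFP against scramble, 6 of 37 pathway genes were called higher, where 8.1% of all genes were, and 1 lower, IFI44L. The largest values in their roles were the DNA sensor CGAS at 2.92 (SE 0.37) and the effectors OAS2 at 3.47 (SE 1.09) and OAS1 at 3.19 (SE 1.17), the last not called. OAS2 was at 0.0560, 0.0615 and 0.665 CPM in the eGFP libraries, again with replicate 3 the high one, and it was not called without that library. In that fit 4 of 37 pathway genes were called higher, as were 1941 of all 23259 genes tested. Without scramble replicate 1 or scramble replicate 2, 4 pathway genes were called in all. STAT2 (-0.14, SE 0.086) was not called, nor were the receptor chains IFNAR2 (-0.72, SE 0.048) and IL10RB (-0.39, SE 0.076), both past the adjusted p but within the fold limit. With SF3B2 or snaR-A against scramble, 2 of 35 and 2 of 36 pathway genes were called higher, where 5.76% and 3.95% of all genes were, and 0 lower, CGAS in both, with XAF1 for SF3B2 and IFI27 for snaR-A. These shares were near those of all genes. Without SF3B2 replicate 3, CGAS and XAF1 were again the 2 called higher with SF3B2, and 2 were called lower, SOCS3 (-1.11) and OASL (-1.78). In that fit 35 pathway genes were tested, and 1397 of all 23169 genes tested were called higher and 734 lower.

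Of the related genes outside the 7, IFIT1B was at most 0.175 CPM in any library and, with eGFP in A549, was called higher at 3.45 (SE 0.57), and 1.84% of the 31-base words of IFIT1 also occur in it. IFITM10 was not called in any comparison of plasmids within a line. IFITM5 was near 0 throughout.

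The genes whose log2 levels were most like the mean of IFIT1, IFIT2 and IFIT3 over the 12 A549 libraries were CMPK2 (0.997), MX1 (0.996) and BATF2 (0.996), with Pearson's r in parentheses, out of 11847 genes. For the mean of IFITM1, IFITM2 and IFITM3 they were OAS1 (0.997), OAS2 (0.997) and OAS3 (0.996). These 12 points fall into 4 plasmid groups, of which eGFP is the high one, and are not 12 independent conditions. In HEK293T the IFIT mean was most like ANXA1 (0.975), ALDH1A1 (0.973) and SEMA3C (0.963), which include the A549 marker ALDH1A1. Without eGFP replicate 3 the 3 leading genes were others, SPCS2 (0.813), KHDRBS1 (0.809) and B4GALT5 (0.809). The IFITM mean of HEK293T was most like CYRIB (0.989), MFF (0.982) and RAP1GDS1 (0.978) with all libraries and NELL2 (0.991), ECI2 (0.990) and GINM1 (0.990) without that library.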

How the data were processed

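RNA was extracted 48 h after transfection, poly(A) selected and made into stranded libraries. Per the labels and the methods, the authors trimmed reads with Trim Galore and quantified transcripts with Salmon (build hg38). The authors deposited estimated counts, which are expected counts per Ensembl gene that had not been normalized. The methods name versions of both tools, and the annotation release is not given in the sources used here. Of the values, 51% were not whole, and all were rounded, which turned 0.034% into 0. Totals were 195185935 to 260878271 counts per library. The limit given for a count of 0 covers counting error only, while SEs and SDs also hold the spread between libraries.

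Samples were grouped by line and plasmid from the title labels. The quasi-likelihood F-test of edgeR 4.0.16 (filterByExpr, TMM factors, R 4.3.3) was fitted over all genes for each comparison of 3 against 3 libraries, or 12 libraries for a difference between lines, with Benjamini-Hochberg adjustment over all genes tested. A call needed an adjusted p under 0.05 and, within a comparison, a log2 fold change past 1. Each SE is the absolute log2 fold change divided by the square root of the F statistic, since edgeR's test gives no SE. Likeness used log2 CPM, adding 2 prior counts. Levels are CPM with TMM factors over all 24 libraries, and CPM per kb divides by the exon length in GENCODE 44. Tests were checked on simulated counts with large changes in well-expressed genes and the same small spread for every gene. That check does not cover libraries that stand apart or genes with low counts. edgeR's exact test, DESeq2 1.42.0, other scalings and filters, a fit of all 12 libraries of a line, a replicate block and leaving out libraries were alternatives. Figures were drawn with matplotlib 3.10.9 (Python 3.11.15, pandas 2.3.3, numpy 2.4.6).

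The members and gene lists were chosen with earlier results of these data known. Named genes were the 7 members, SF3B2, all interferon ligands, the 2 pathway genes of each role with the largest absolute log2 fold change in the comparison of each line with most members called (eGFP against scramble, tied in A549 with SF3B2 against eGFP), and the 3 genes most like each family's mean. Genes named beside these were called genes in counts of 7 or fewer, or markers of the libraries that stood apart, picked after their values were seen. No column of the table was left unmapped. The values of 1 listed gene are not reported here.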

Additional observations from a re-analysis of the deposited data

Results flagged for a closer look

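The effect of a plasmid differed between the lines for 11 combinations of gene and comparison, each by edgeR's test of the difference itself (A549 effect minus HEK293T effect, log2 scale). For eGFP against scramble the difference was 5.49 for IFITM1, 3.51 for IFIT1, 3.01 for IFITM3, 1.81 for IFITM2 and 1.73 for IFIT5. For SF3B2 against eGFP, which shares the eGFP libraries, it was -2.67 for IFITM1, -2.25 for IFIT1, -1.82 for IFITM3, -1.47 for IFITM2 and -1.25 for IFIT5. For snaR-A against scramble it was 2.01 for IFITM1. The lines started from different levels, IFITM1 being higher in HEK293T scramble and lower in A549 scramble. In HEK293T eGFP replicate 3 the A549 marker RNA stood at 728 CPM. Without that library the eGFP difference was 5.53 for IFITM1 and 4.0 for IFIT1.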

How the results depend on the processing

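In A549, all 7 members were called for eGFP against scramble and for SF3B2 against eGFP under every alternative run and without any single library. Leaving out each library in turn, the count of members called ranged from 0 to 4 for A549 SF3B2 against scramble (4 with all), 1 to 2 for HEK293T eGFP against scramble (1 with all), 0 to 1 for HEK293T SF3B2 against scramble (0 with all) and 1 to 3 for snaR-A against scramble between the lines (1 with all). Under other settings it was for A549 SF3B2 against scramble 2 with RLE factors and 0 with all 12 libraries of the line, for A549 snaR-A against scramble 1 with DESeq2, for HEK293T eGFP against scramble 2 with all 12 libraries of the line, for HEK293T SF3B2 against scramble 1 with library size alone and for snaR-A against scramble between the lines 3 with DESeq2, 2 with RLE factors, 2 with no filter on low counts and 2 with a minimum of 10 counts in every library. Pathway genes called ranged, leaving out each library, from 0 to 11 for A549 SF3B2 against scramble (4 with all), 4 to 10 for HEK293T eGFP against scramble (7 with all), 0 to 1 for HEK293T SF3B2 against eGFP (0 with all) and 2 to 4 for HEK293T SF3B2 against scramble (2 with all), and under other settings numbered for A549 SF3B2 against scramble 10 with edgeR's exact test, 11 with DESeq2 and 1 with all 12 libraries of the line, for A549 snaR-A against scramble 1 with edgeR's exact test and 1 with DESeq2, for HEK293T SF3B2 against eGFP 1 with edgeR's exact test, for HEK293T SF3B2 against scramble 1 with a minimum of 10 counts in every library, for HEK293T snaR-A against scramble 1 with all 12 libraries of the line and for snaR-A against scramble between the lines 8 with DESeq2. The sign of a log2 fold change moved for HEK293T eGFP against scramble IFIT1 (-0.13, -0.59 to 0.058 leaving out libraries), IFIT3 (1.34, -0.074 to 1.74 leaving out libraries) and IFIT5 (-0.034, -0.090 to 0.035 leaving out libraries and 0.070 with library size alone), for HEK293T SF3B2 against eGFP IFIT1 (0.072, -0.12 to 0.54 leaving out libraries and -0.076 with library size alone), IFIT2 (-1.12, -1.56 to 0.51 leaving out libraries), IFIT3 (-1.11, -1.51 to 0.31 leaving out libraries), IFIT5 (0.037, -0.036 to 0.10 leaving out libraries and -0.12 with library size alone) and IFITM3 (-0.011, -0.16 to 0.17 leaving out libraries, 0.0043 with DESeq2, 0.0032 with RLE factors and 0.012 with a replicate block), for HEK293T SF3B2 against scramble IFIT1 (-0.039, -0.095 to 0.019 leaving out libraries), IFIT3 (0.25, -0.055 to 0.49 leaving out libraries) and IFIT5 (0.024, -0.051 with library size alone), for HEK293T snaR-A against scramble IFIT2 (0.016, -0.048 to 0.12 leaving out libraries) and IFIT3 (-0.033, -0.19 to 0.074 leaving out libraries and 0.068 with library size alone). No value among these was called with all libraries.

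The replicate numbers showed no common pairing of the samples. The median correlation of deviations between samples of the same number was -0.0214 in A549 and 0.0169 in HEK293T over 18 pairs each. Single pairs ranged from -0.365 to 0.380 in A549 and from -0.125 to 0.217 in HEK293T, and whether some shared a batch was not tested. With a replicate block, 0 members, 0 pathway genes and 0 of all genes were called for A549 SF3B2 against scramble. For SF3B2 against eGFP, 7 of 42 pathway genes differed between the lines, where 15 did without the block. Of all 24714 genes tested, 137 differed with the block and 1507 without it. No other count of members moved by over 1.5 times under the block.

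Over all genes, A549 SF3B2 against scramble had 18 calls and a range of 0 (replicate block) to 315 (without scramble replicate 3), A549 snaR-A against scramble 4 and 0 to 29, HEK293T SF3B2 against eGFP 30 and 1 to 335, and the difference between lines 6533 and 3774 to 7717 for eGFP against scramble, 1507 and 137 to 4900 for SF3B2 against eGFP and 2831 and 1229 to 4406 for snaR-A against scramble. Calls for A549 scramble against HEK293T scramble were 11059 and 7168 to 12879, those for HEK293T snaR-A against scramble 1075 and 662 to 1339. Scaling by library size alone shifted the median of all genes by -0.40 (log2) for A549 scramble against HEK293T scramble and turned the split from 5350 higher and 5709 lower to 4089 and 7584. It shifted it by 0.11 for HEK293T eGFP against scramble, -0.16 for HEK293T SF3B2 against eGFP, and for the differences between lines by -0.13 (eGFP against scramble, split from 3861 and 2672 to 2226 and 3626) and 0.17 (SF3B2 against eGFP, split from 638 and 869 to 924 and 292). For snaR-A against scramble between the lines, the split was 1186 and 1645, and 1545 and 1264 with RLE factors. Group means of the members moved by -16.96% to 23.5% under library size alone. The fits without 2 libraries that stood apart were chosen after seeing the data.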
